A study of Marmota flaviventris with 43 samples.

Results

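The genes described here are the 200 whose blood transcript level varied least between 43 samples from Marmota flaviventris, the yellow-bellied marmot, which is a large burrowing squirrel. They were chosen by the standard deviation (SD) of each gene over all 43 libraries in the authors' regressed table, which holds log2 values from which 5 terms had been removed. A gene could be chosen if it averaged at least 100 counts per library and had a deposited mean length under 1000 bases. This value is labelled mean gene length, and the sources used here do not say what was averaged. It may therefore not be the length of a whole gene or transcript. The 100 genes under this length limit with the highest mean CPM (counts scaled to the library total) were left out. These limits left 6060 of the 22389 gene IDs in the count table, and the 200 with the smallest SD are called the stable genes. Their small spread is what chose them, so it is described without a test.

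Each sample was whole blood, preserved in a solution that stabilises RNA and depleted of globin transcripts, the dominant messages of red cells. The 16 dispersers were yearlings that later left their birthplace, and the 27 residents are given no age in the sources used here. The labels name no treatment, sex, strain or sampling date, and do not state that every sample came from a different animal. The p-values below therefore rest on the spread between samples. Total counts ranged from 4592338 to 15066518 in dispersers and from 4725409 to 15237506 in residents.

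Whole blood mixes red cells, platelets and many kinds of white cell, and the share of each changes with infection, stress and season. A transcript keeps a steady level in such a mixture when all the cell types carry it at similar and steady levels. It also does so when both the shares of the cells and their levels of the transcript stay steady. Genes of this kind serve as internal references when expression is compared between samples, and many of those in common use encode parts of the machinery for protein synthesis, protein breakdown and energy supply. The files do not pair gene IDs with names, and 0 of the 22389 IDs matched the RefSeq gene table used here (assembly mMarFla1.hap1). The stable genes are therefore given by ID and by measured properties, with no function, and no marker of a blood cell type was looked up.

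The SD of the stable genes in the regressed log2 values ran from 0.131 to 0.225, with a median of 0.207. The other 5860 eligible genes had a median of 0.424 and reached 3.57. In bulk blood, fewer cells of a type and less RNA per cell cannot be told apart, and the same holds for a steady level. The SDs run on without a gap across the limit of the set. The last genes inside it, ENSSTOG00000026099, ENSSTOG00000004295 and ENSSTOG00000000516, had SDs of 0.2253, 0.2253 and 0.2255. The first outside it, ENSSTOG00000005618, ENSSTOG00000010800 and ENSSTOG00000007398, had 0.2257, 0.2260 and 0.2261. At the other end a single gene stood apart, with an SD of 0.131 against 0.155 and 0.159 for the next in rank.

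**Figure D1:**
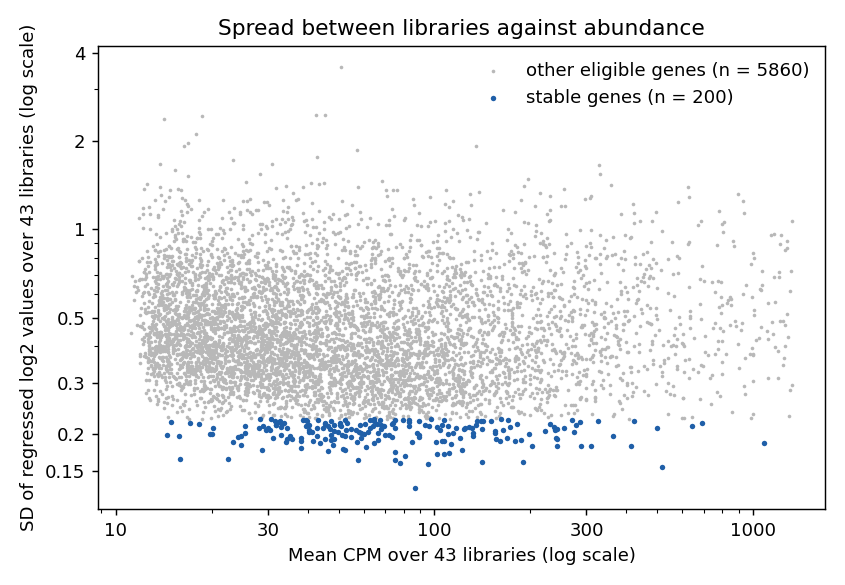
SD of the authors' regressed log2 values over 43 libraries (y axis, log scale) against mean CPM (x axis, log scale), with 1 point per eligible gene. The 200 stable genes (blue) lie below an SD of 0.2255 at every abundance from 14.5 to 1079 CPM, and the other 5860 genes are grey.

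The gene with the smallest SD, ENSSTOG00000023412, had a lowest, median and highest CPM (scaled by trimmed mean of M-values, TMM) of 65.4, 78.0 and 115 in dispersers. In residents these were 60.9, 80.1 and 123. The groups overlapped over nearly their whole range, and the highest library was 2.03 times the lowest. The gene held this first rank only after the terms were removed. In the authors' normalized values its SD was 0.269, which placed it 145th among the eligible genes, and 76.2% of its variance was taken out with the terms.

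ENSSTOG00000010807, second in rank, had 382, 454 and 591 CPM (lowest, median, highest) in dispersers and 384, 535 and 653 in residents. Of the 16 dispersers, 13 lay below the resident median for this gene, while the ranges overlapped. ENSSTOG00000016434, next in rank, had 66.9, 92.2 and 109.7 CPM in dispersers and 76.2, 90.6 and 121 in residents. It was the steadiest of all 6060 eligible genes before the terms were removed, with an SD of 0.173 in the normalized values, and only 15.6% of its variance was removed. Before the removal, ENSSTOG00000010807 had rank 19. Of these 3 genes, ENSSTOG00000023412 thus moved furthest between the 2 tables, and the others stayed near the front of the order.

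**Figure D2:**
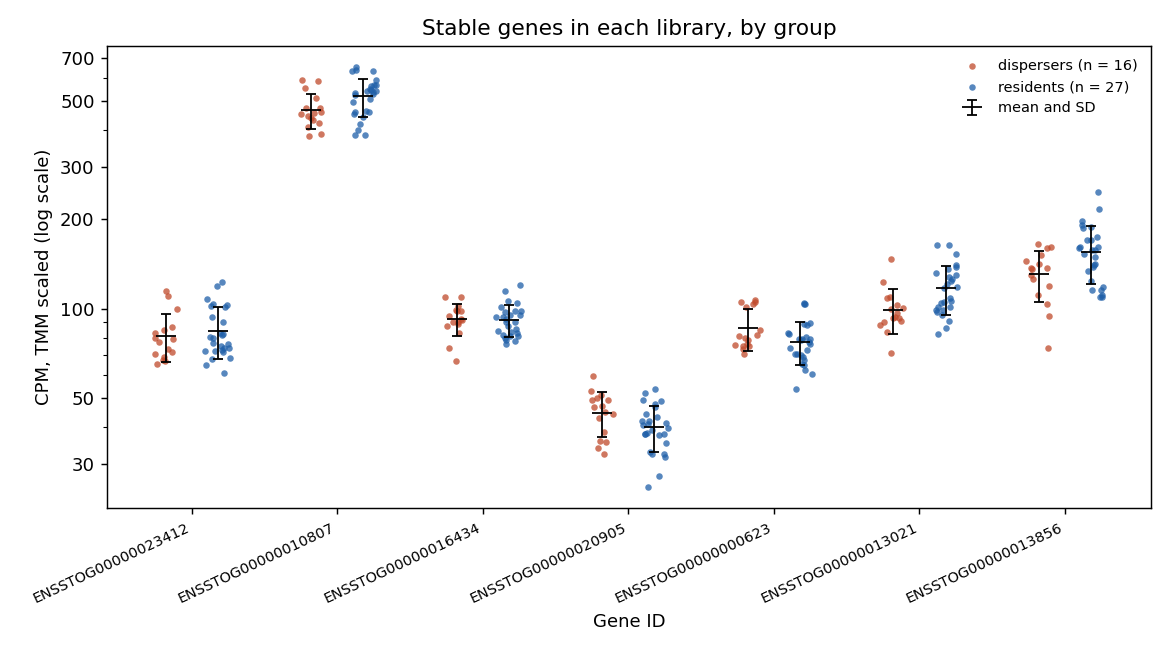
TMM-scaled CPM (y axis, log scale) of 7 stable genes (x axis) in each of 16 disperser (red) and 27 resident (blue) libraries, with bars for the mean and SD. The first 3 have the smallest SD of the set and the last 4 the smallest unadjusted p in the group comparison, and in all 7 the groups overlap.

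The set spanned a wide range of abundance. Its genes averaged from 117 to 8892 counts per library, with a median of 533 against 360 in the other eligible genes. The most abundant by counts was ENSSTOG00000027968, with 843, 1012 and 1438 CPM (lowest, median, highest) in dispersers and 623, 1044 and 1391 in residents. The least abundant was ENSSTOG00000004021, with 9.87, 13.4 and 16.2 CPM in dispersers and 8.76, 14.2 and 19.5 in residents. CPM is not scaled by length, so these values do not compare molecule numbers between genes. When the eligible genes were ranked by mean CPM and divided into 5 classes of 1212, the lowest class held 9 stable genes and the next 25, and the 3 classes above held 56, 58 and 52. The deposited mean length differed little, with a median of 149 bases in the stable genes and 150.5 in the others. Divided by this value, 5 classes held from 31 to 49 stable genes each. What the value averages is not stated, so it is not read as the length of whole genes or transcripts.

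Counting error took a small part of the remaining spread. The SD that Poisson counting alone would give had a median of 0.0701 on the log2 scale in the stable genes, against a median observed SD of 0.266 in log2 CPM. It made up a median of 6.95% of their variance in log2 CPM, and 2.30% in the other eligible genes. In 1 of the 200, ENSSTOG00000027742 (named after its values were seen), it was the larger part of this variance, at 55.1% with a mean count of 129. The SD in the regressed values, which chose the set, had a smaller median of 0.207. The part of counting error in that variance can be larger and was not computed. The median biological coefficient of variation, edgeR's estimate of the spread beyond counting error, was 22.3% over the stable genes and 45.04% over all 10921 genes tested.

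Low spread did not mean identical levels. In TMM-scaled CPM, the highest library exceeded the lowest by 1.65 to 4.63 times, with a median of 2.22. No stable gene stayed within 1.5-fold over the 43 libraries. The ratio was under 2-fold for 43 of the 200 and under 3-fold for 192, against 9 and 666 of the 5860 other eligible genes. The largest ratio, 4.63, belonged to ENSSTOG00000014752, which had 32.5, 84.4 and 117 CPM in dispersers and 40.5, 71.5 and 150.4 in residents. This gene also had the largest share of variance removed with the terms, 78.1%, and stood 1974th among the eligible genes by SD before that removal. At the opposite end, ENSSTOG00000002815 lost 5.09% of its variance and had 27.4, 39.3 and 46.0 CPM in dispersers and 24.7, 38.2 and 51.7 in residents.

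The set before and after the removal of the terms overlapped in part. In the normalized values the median SD was 0.265 for the stable genes and 0.597 for the other eligible genes. The share of variance removed had a median of 42.9% in the stable genes and 45.8% in the others. Of the 200 stable genes, 124 were also among the 200 with the smallest SD before the removal, and 76 were not. Within the set, the order before and after the removal was loosely related (Spearman's rho = 0.369 across 200 genes, which share the same libraries). The choice held the SD after the removal between 0.131 and 0.225. Such a narrow range by itself weakens the relation, so nothing is read from its size.

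The stable genes shared a middling GC content, a property the choice did not use. Their median was 51.0%, and 146 of 200 (73%) lay between 45% and 55%, against 2071 of 5860 (35.3%) of the other eligible genes. When all eligible genes were ranked by GC content and divided into 5 classes of 1212, the classes held 17, 71, 86, 25 and 1 stable genes from low to high GC. The class with the most ran from 50.5% to 55.6%. The single stable gene in the highest class was ENSSTOG00000005058, at 62.2% GC, with 84.4, 160.4 and 195 CPM in dispersers and 86.7, 152 and 207 in residents. The lowest GC content in the set, 38.4%, was that of ENSSTOG00000005745, with 14.6, 23.1 and 30.1 CPM in dispersers and 13.5, 25.4 and 31.2 in residents.

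The same middle classes were the steadiest over all eligible genes. From low to high GC the median SD of the 5 classes was 0.441, 0.364, 0.351, 0.400 and 0.564 after the terms were removed, and 0.649, 0.482, 0.439, 0.559 and 0.946 before. The share of variance removed followed the same shape, with medians of 51.1%, 38.5%, 31.9%, 43.3% and 63.7%. Genes are not independent replicates, so no test was made of these differences.

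**Figure D3:**
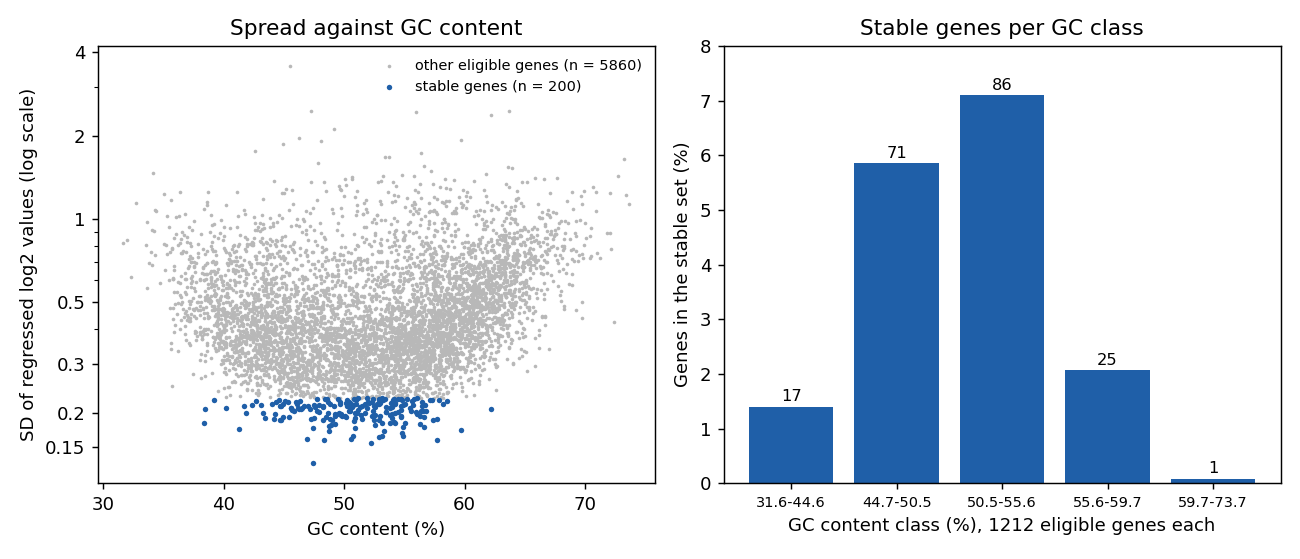
Left, SD of the regressed log2 values (y axis, log scale) against GC content in % (x axis) for 200 stable genes (blue) and 5860 other eligible genes (grey). Right, the percentage of genes in the stable set (y axis) in 5 GC classes of 1212 eligible genes, with the number of stable genes above each bar, which peaks at 86 in the middle class.

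The spread within each group was similar. Over the stable genes the median SD was 0.200 in the 16 dispersers and 0.206 in the 27 residents. Of the 200, 89 (44.5%) varied more in dispersers, against 2962 of the 5860 other eligible genes (50.5%). The choice over all 43 libraries gave more weight to the larger group. Because both groups entered the choice, the same measure was also taken in libraries that a choice had not used. The 200 eligible genes with the smallest SD over the residents alone had a median SD of 0.214 in dispersers, where the median of all eligible genes was 0.417. All 200 lay below the median of the disperser ranking, 151 in its lowest 10% and 73 among its own 200 smallest, a group that makes up 3.30% of the eligible genes. In the reverse direction, the 200 chosen in dispersers had a median SD of 0.241 in residents against 0.407 for all eligible genes. There 199 lay below the median, 131 in the lowest 10% and 73 among the 200 smallest. A low spread in one group of samples went with a low spread in the other in these values. The terms had been removed by the authors from all libraries together, so the 2 groups were not processed apart. Neither group is therefore an independent check of the other, and the overlap is given as a description. Of the stable genes themselves, 159 were among the 200 chosen in residents alone and 100 among those chosen in dispersers alone, with 73 in both lists and 14 in neither.

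**Figure D4:**
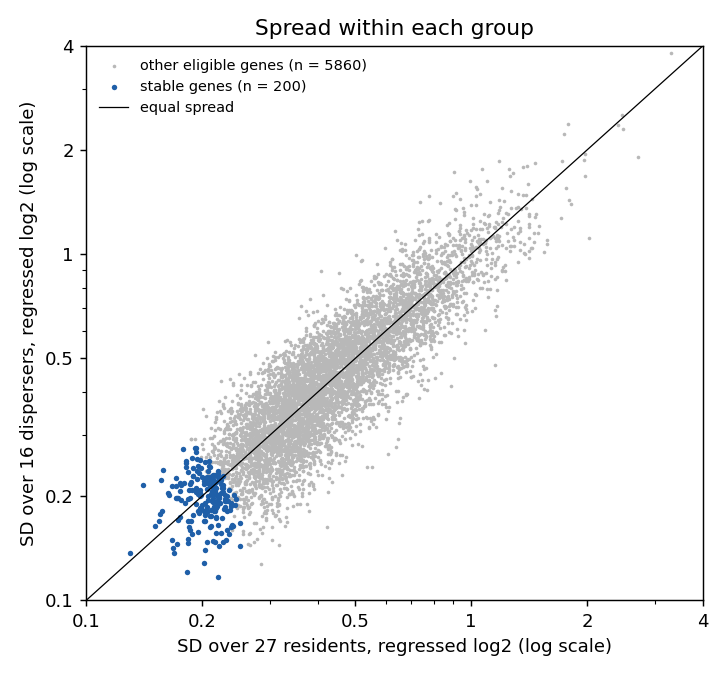
SD of the regressed log2 values over 16 dispersers (y axis) against that over 27 residents (x axis), both on log scales, for 200 stable genes (blue) and 5860 other eligible genes (grey), with the line of equal spread. The stable genes sit at the lower left, with SDs from 0.117 to 0.276 in dispersers and from 0.130 to 0.251 in residents.

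The remaining variation was only partly shared between the stable genes. Over the 19900 pairs, the median Pearson correlation of the regressed values across 43 libraries was 0.108, with a range from -0.739 to 0.890. A correlation of at least 0.5 was found in 1214 pairs and one of -0.5 or below in 139. The first principal component of the set held 17.2% of its variance and the second 13.6%. The closest pair, ENSSTOG00000003733 and ENSSTOG00000016340 (named after their values were seen), had r = 0.890. In the normalized values the median correlation was the same to 2 digits, 0.107, but the extremes were more populated, with 2630 pairs at 0.5 or above and 873 at -0.5 or below.

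The libraries differed in how much of their total the stable genes took. Together the 200 genes held from 1.10% to 2.68% of the counts in dispersers (median 2.08%) and from 1.06% to 2.98% in residents (median 2.49%). The lowest shares were those of resident replicate 17 and disperser replicate 13, in which the 10 most abundant genes of the library took 30.7% and 32.6% of the counts, the largest such shares of the 43. After TMM scaling the sum of the stable genes ranged only from 1.84% to 2.38% of the scaled total, a ratio of 1.29 between the highest and the lowest library instead of 2.83. With scaling by total count alone, the median SD of the stable genes in log2 CPM was 0.484 instead of 0.266. The set was chosen in values that already carry a shift for each library, which favours steadiness after such scaling. Both comparisons of scaling are therefore given as a description. The same 2 libraries held the lowest regressed value of 22 and 19 of the stable genes, and the highest of 7 and 11, with an average of 4.65 per library for each. The SD of their regressed values over the set was 0.258 and 0.264, against a median of 0.179 for the 43 libraries, so both were wide. Their median regressed values over the set were -0.0582 and 0.0020, where the 43 libraries ran from -0.153 to 0.134. Resident replicate 17 was thus also somewhat low. Resident replicate 15 held the highest value of 21 stable genes. Without the first 2, a change chosen after seeing the data, the median SD of the stable genes was 0.201 in the regressed values, and 174 of the 200 would still be chosen.

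The labelled contrast asked whether blood expression differs in animals that are about to leave. No stable gene passed the test. With edgeR's quasi-likelihood test, 0 of the 200 had an adjusted p under 0.05, where the background was 0% of 10921 genes tested, and the smallest adjusted p among them was 0.9998. DESeq2 and limma also gave 0. The choice of the set by a small SD over the same libraries favours small group differences, so nothing is read from these counts about the set. The log2 fold changes of the 200 ran from -0.25 to 0.16 with a median absolute value of 0.0590, against 0.121 over all genes. Of the 200, 85 were higher and 115 lower in dispersers. That balance moved with the scaling, to 7 and 193 with total counts, which shifted the median of all genes from -0.0094 to -0.134, and to 107 and 93 when libraries were scaled by the stable genes themselves.

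The intervals around these differences were narrow, as the choice of the set by a small SD over the same libraries makes them, and their width is given as a description. The median standard error was 0.0950 in log2 units, against 0.216 over all genes. The 95% interval stayed within a 1.5-fold difference in either direction for all 200 and within 1.25-fold for 161, against 5753 and 1015 of the 10921 genes tested. At an unadjusted p under 0.05 there were 6 stable genes (3%), against a background of 2.6% of all genes. All 6 were lower in dispersers (background 1.48%) and 0 higher (background 1.12%). DESeq2 gave 12 at this limit (background 2.66% of 20350 genes) and limma on the normalized values 6 (background 2.45% of 11381 genes). The edgeR count was 12 without resident replicate 17 and disperser replicate 13 (background 3.98% of 11011 genes). It was 3 without any 1 of disperser replicates 1, 2, 7 and 15 or resident replicates 7, 9 and 11, fits in which the background ran from 2.01% to 2.63%. The 1-sided direction was not kept in every fit, and nothing is read from it. When libraries were scaled by the stable genes, 1 was higher and 3 lower, beside 151 and 120 of 10921 genes. Without disperser replicate 4, 1 was higher and 3 lower, beside 136 and 160 of 11004 genes. With the 5 terms as covariates edgeR gave 8 stable genes, 4 higher and 4 lower, beside 708 and 502 of 10921 genes. In the regressed values limma gave 3, of which 1 was higher and 2 lower, beside 499 and 231 of 11381 genes.

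The 2 stable genes with the smallest unadjusted p for a lower level in dispersers were ENSSTOG00000013021 and ENSSTOG00000013856. ENSSTOG00000013021 had 71.3, 95.2 and 147 CPM (lowest, median, highest) in dispersers and 82.4, 118 and 165 in residents, and 14 of 16 dispersers lay below the resident median. Its means were 99.5 ± 17.3 (SD, n = 16) and 118 ± 22.4 (SD, n = 27). The groups overlapped, and the fitted log2 fold change was -0.24 (SE 0.09, unadjusted p = 0.0133 and adjusted p = 0.9998 by edgeR). ENSSTOG00000013856 had 74.0, 137 and 165 CPM in dispersers and 109, 158 and 248 in residents, with 13 of 16 dispersers below the resident median. The fitted difference was a log2 fold change of -0.25 (SE 0.11, unadjusted p = 0.0245 and adjusted p = 0.9998 by edgeR). With the 5 removed terms as covariates the second value shrank to -0.05, while that of ENSSTOG00000013021 was -0.21.

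For a higher level in dispersers, the smallest unadjusted p values belonged to ENSSTOG00000020905 and ENSSTOG00000000623. ENSSTOG00000020905 had 32.3, 45.9 and 59.3 CPM in dispersers and 25.1, 39.6 and 53.6 in residents, with 11 of 16 dispersers above the resident median. The fitted difference was a log2 fold change of 0.16 (SE 0.09, unadjusted p = 0.0842 and adjusted p = 0.9998 by edgeR), and 0.07 when libraries were scaled by total count. ENSSTOG00000000623 had 70.5, 80.4 and 107 CPM in dispersers and 53.9, 77.2 and 105 in residents. The fitted difference was a log2 fold change of 0.15 (SE 0.08, unadjusted p = 0.0874 and adjusted p = 0.9998 by edgeR), and 0.02 with total counts. Neither difference stood clear of the spread between samples.

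One of the 5 terms removed by the authors takes exactly 2 values over the libraries, 0 in 22 (7 dispersers, 15 residents) and 1 in 21 (9 dispersers, 12 residents). The sources used here do not name it, and it is called the first removed term. The labels give 2 sequencer models for the series (HiSeq 2000 and HiSeq 4000) without assigning them to samples, and how the term relates to the instrument was not tested. The group comparison was repeated within each value, a division chosen after seeing the data. Among libraries at 0, 60 stable genes were higher and 140 lower in dispersers. Among those at 1, 103 were higher and 97 lower. The median log2 fold change at 0 was -0.084 in the stable genes and -0.030 over all genes tested. At 1 it was 0.013 and -0.038. In both, 0 of the 200 passed an adjusted p of 0.05 by edgeR, and 0 of all genes tested did. At an unadjusted p under 0.05 there were 7 of 200 at 0 (background 8.02%) and 1 of 200 at 1 (background 2.81%). The log2 fold change of ENSSTOG00000013021 was -0.27 at 0 and -0.21 at 1, and that of ENSSTOG00000013856 was -0.21 at both.

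The counts of many stable genes differed between libraries at 1 and at 0 of that term, although the genes were chosen as steady once it had been removed. By edgeR's quasi-likelihood test, 95 of the 200 (47.5%) had an adjusted p under 0.05, where the background was 63.6% of 10706 genes tested. Of these, 23 were higher at 1 (background 29.5%) and 72 lower (background 34.1%). The differences were small, with a median absolute log2 fold change of 0.187 in the stable genes and 0.534 over all genes. A fitted change past 1.5-fold was found for 2 of the 200 and for 4864 of the 10706. The low residual spread that chose these genes also enters the error of this test, so the count is given as a description. The second 2-valued term called 3 of the 200, against a background of 0.636% of 11006 genes.

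ENSSTOG00000014752 had the largest rise at 1. Its lowest, median and highest CPM were 32.5, 56.4 and 91.3 in the 22 libraries at 0 and 71.5, 90.6 and 150.4 in the 21 at 1, so the ranges overlapped only between 71.5 and 91.3. The log2 fold change was 0.69 (SE 0.10, edgeR adjusted p = 9.4e-07). ENSSTOG00000023412, first in rank by SD, had 66.8, 91.8 and 123 CPM at 0 and 60.9, 72.1 and 86.9 at 1, a log2 fold change of -0.34 (SE 0.08, edgeR adjusted p = 0.000156). Its SD was 16.8 CPM around a mean of 92.8 at 0 (n = 22) and 6.61 around 73.2 at 1 (n = 21). ENSSTOG00000010807 and ENSSTOG00000016434, the next in rank, had log2 fold changes of -0.0024 and 0.01 (edgeR adjusted p = 0.982 and 0.880).

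The direction of these differences varied with GC content within the set, which was divided into 4 classes of 50 by GC. In the lowest class, from 38.4% to 47.9%, 36 of 50 were called lower at 1 and 0 higher, with a median log2 fold change of -0.33. Of all 3473 genes tested in that GC range, 71.6% were called lower and 1.15% higher, with a median of -0.59. In the next class 24 were called lower and 2 higher, with a median of -0.19, beside 36.7% and 6.503% of all genes and a median of -0.19. In the class above, 6 were called lower and 7 higher, with a median of 0.03, beside 18.02% and 15.2% of all genes and a median of -0.03. In the highest class, 6 were called lower and 14 higher, with a median of 0.03, beside 3.01% and 55.03% of all genes and a median of 0.43. The change with GC content was thus also present over all genes, and is not particular to the stable ones. Libraries at 1 also had a higher count-weighted mean GC content over all genes, 54.97% ± 0.43 (SD, n = 21) against 52.7% ± 1.37 (SD, n = 22), and more counts, 9344341 ± 2740260 (SD, n = 21) against 6658375 ± 1487134 (SD, n = 22). The part of depth and of library GC content in the differences of single genes was not tested. Between dispersers and residents the medians of the same 4 classes were -0.02, -0.01, 0.0045 and -0.04.

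**Figure D5:**
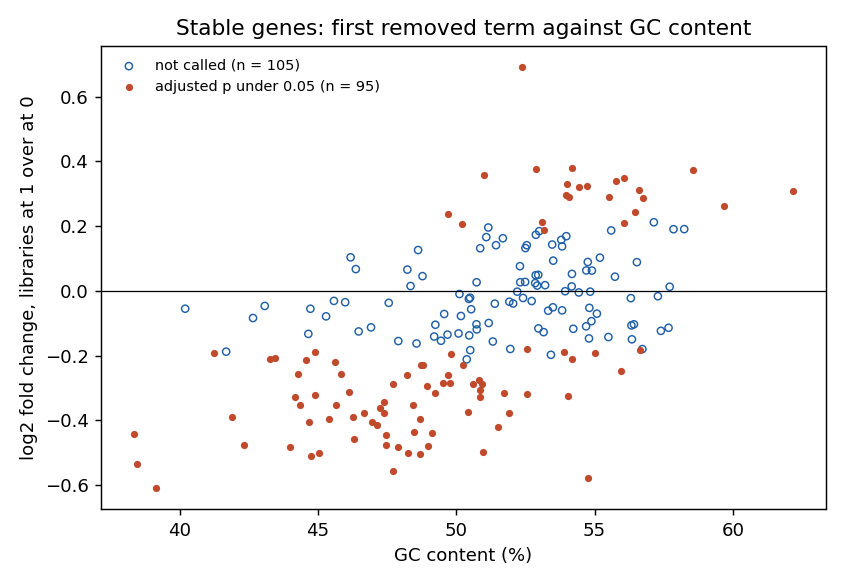
Log2 fold change between the 21 libraries at 1 and the 22 at 0 of the first removed term (y axis) against GC content in % (x axis) for the 200 stable genes. The 95 genes with an adjusted p under 0.05 (filled red) lie mostly below 0 at low GC content, and the 105 others are open blue circles.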

How the data were processed

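The submitters' processing notes list TopHat2 2.1.0, Trim Galore 0.3.1, limma and HTSeq without saying what each did. The genome build and the annotation: not given in the sources used here. Raw counts were deposited per gene ID, beside the GC fraction and mean length of each gene, per the column headers. What that length was averaged over: not given in the sources used here. The authors' normalized log2 values were recovered from the counts as log2(RPKM + 0.5) with a shift for each library (largest deviation 3.9e-08). The authors' regressed log2 values are residuals after 5 terms were removed, 2 of which take 2 values over the libraries. This was found by comparing both tables. No 2 of the 43 libraries held the same counts, and the smallest chi-square per degree of freedom between 2 libraries was 22.8.

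Counts were fitted with edgeR 4.0.16 in R 4.3.3 on the whole table (filterByExpr with a minimum count of 10, TMM, robust quasi-likelihood test, Benjamini-Hochberg adjustment at 0.05). All 200 stable genes passed this filter. Standard errors were derived from the fold change and the F statistic, so they and the intervals are approximate. Log2 CPM used a prior count of 2. DESeq2 1.42.0 and limma 3.58.1 were alternatives. Scripts were tested on simulated data.

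The genes named were the 3 with the smallest SD, the 3 on each side of the limit of the set, the extremes of mean CPM, GC content and variance removed, and, for each direction of the group difference, the 2 of smallest unadjusted p. The set and these lists were chosen with earlier results of these data known.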

Additional observations from a re-analysis of the deposited data

How the results depend on the processing

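The set depended on the measure of spread more than on its limits. Of the 200 stable genes, 187 to 199 were chosen again with a mean count of at least 50 or 200, another or no length limit, or 0 or 200 of the most abundant genes dropped. Leaving out 1 library kept 180 to 198, and 170 were in the set in all 43 such choices. With the median absolute deviation 115 were chosen again, with the SD of the normalized values 124, with the SD of log2 CPM 124, with the coefficient of variation 122, with the variance above counting error 119, and in dispersers only 100. The number of stable genes called between the groups was 0 in all 12 alternatives and in the 43 fits without 1 library. The number over all genes was 0 in the same fits except without a filter on low counts, where it was 1. At an unadjusted p under 0.05 the number of stable genes was 6, from 3 to 9 without 1 library, and from 1 to 12 over the other alternatives. That over all genes was 284, from 221 to 421 without 1 library, 541 with DESeq2, 730 in the regressed values, 1210 with the removed terms as covariates, 2020 with no filter on low counts, and 877 where the first removed term was 0. The 4 genes named in the group comparison kept their sign in every alternative. They were picked by their p in these same libraries, which favours a kept sign, so nothing is read from it. Over the 12 alternatives the log2 fold change nearest to 0 was 0.07 for ENSSTOG00000020905 and 0.02 for ENSSTOG00000000623. It was -0.15 for ENSSTOG00000013021 and -0.03 for ENSSTOG00000013856. The median SD of the stable genes in log2 CPM was 0.484 with total count scaling instead of 0.266. The cause of these changes was not tested. No paired analysis was made because the labels do not link any disperser sample to a resident sample.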
